A study of Mus musculus with 8 samples.

Results

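Cardiac mesenchymal stromal cells (cMSCs) are the fibroblast-like progenitors of the heart, and 10 genes whose products are used to sort them, to split them into subsets or to recognise them as fibroblasts were followed here across young and aged hearts. The 10 genes are Ly6a and Pdgfra (Sca-1 and PDGFRα, both required by the sort), Thy1 (CD90), the fibroblast genes Tcf21 and Ddr2, the stromal progenitor markers Eng (CD105), Nt5e (CD73) and Cd34, and the adhesion molecules Pdpn and Vcam1. They were taken from the array by name, as every non-control probe whose gene name is on that list, which gave 18 probes of 56605, and all 10 genes were among the 20212 genes that could be tested. The study asked how cMSC gene expression differs with age. Ventricular cells that lacked CD31 and CD45 and carried both Sca-1 and PDGFRα were sorted from male C57BL/6 mice and lysed, and their RNA was hybridised to 1-colour Agilent mouse arrays. The young group had 4 pools (replicates 2, 3, 4 and 5; 5 months in the labels) and the aged group 4 pools (replicates 1, 2, 3 and 4; 20 months), with no treatment or transgene named in the labels. The design gives 3 mice to a pool, although aged replicate 4 carries a code that may mean 2 mice. Differences between single mice cannot be seen. The study's methods name 2 mouse lines, 1 of them with a Cx3cr1 reporter allele, and do not say which of them gave these pools.

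Sca-1, CD90 and CD73 are proteins tied to the cell surface by a lipid anchor, PDGFRα and DDR2 are receptor tyrosine kinases for growth factors and for fibrillar collagen, and endoglin is a co-receptor for ligands of the TGF-β family. CD34 and podoplanin are sialomucin-like surface proteins, VCAM1 binds integrins of leukocytes, and TCF21 is a transcription factor that cardiac fibroblasts keep from their epicardial origin. Several of these markers are shared with other cells: CD34, endoglin and Sca-1 are also found on endothelium, podoplanin on lymphatic endothelium and mesothelium, and CD90 on T cells and neurons.

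The probes behind the results below are shown by their last 30 bases, written 5′ to 3′ as the array files give them, because several results rest on 1 probe and Vcam1 was read differently by each of its probes. Capitals mark AATAAA, the canonical polyadenylation signal, which 9.77% of all 56605 probes hold on this strand and 2 of the 18 marker probes do (Thy1 and the brighter Cd34 probe).
Thy1: aggaaagaaaactgcacAATAAAaccaagc
Ly6a: agtgtgtgaaataccatgttttgcctttat
Pdpn: gtcttcgtgacacggggactcagtgttgct
Vcam1, brighter probe: cactgggttgactttcaggtactactttct
Vcam1, dimmer probe: cgtcattgaggatattggaaaagctcttgt
Nt5e: tttgttgcagtgaaacaatgccttcagttc
Cd34, brighter probe: tctgAATAAAcgtgatgagtgaaaatgatg
On the mouse build mm9, the Thy1 probe lies at chr9:43856591-43856650 on the plus strand and the Ly6a probe at chr15:74825553-74825612 on the minus strand. The Pdpn probe lies at chr4:142857423-142857482 on the minus strand. The Vcam1 probes lie at chr3:115813216-115813275 (brighter) and chr3:115828953-115829012 (dimmer), both on the minus strand, 15737 bases apart. The Nt5e probe lies at chr9:88266616-88266675 and the brighter Cd34 probe at chr1:196787392-196787451, both on the plus strand. Whether a probe falls in a coding exon or a UTR was not read here, since no annotation of mm9 was used. In 6 of the 6 marker genes with several probes, the brightest probe was the one farthest downstream on the gene's strand.

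Values are log2 ratios of the processed signal to the array's 75th percentile, and rose and fell are used of a gene whose limma p, adjusted over all 20212 genes, was under 0.05. A probe's signal depends on its sequence, so levels of different genes are not compared as amounts of transcript. Of the spots on an array, 57.8% to 63.4% were well above background, and none of the 144 marker spots was saturated or marked as an outlier. Among arrays of the same group the correlation over genes was 0.988 to 0.995, and between groups 0.981 to 0.993.

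Thy1 was the marker that fell with age and Pdpn the marker that rose, so 1 of 10 markers rose against 2.36% of all genes and 1 of 10 fell against 0.792%. The other 8 did not pass. The median difference of the 10 markers was -0.022 on the log2 scale, beside 0.0014 over all genes. The aged pools lay wholly above the young pools for Ly6a, Pdpn and Vcam1, against 6.67% of all genes, and wholly below them for Thy1, against 4.06% of all genes. The other 6 markers overlapped between the ages. At the thresholds named in the methods, an unadjusted p of at most 0.01 and a log2 difference over 0.5, Ly6a was higher, as were 3.21% of all genes, and Thy1 and Nt5e were lower, as were 1.26% of all genes. In pooled cells, fewer cells of a kind and less RNA in each cell cannot be told apart.

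**Figure D1:**
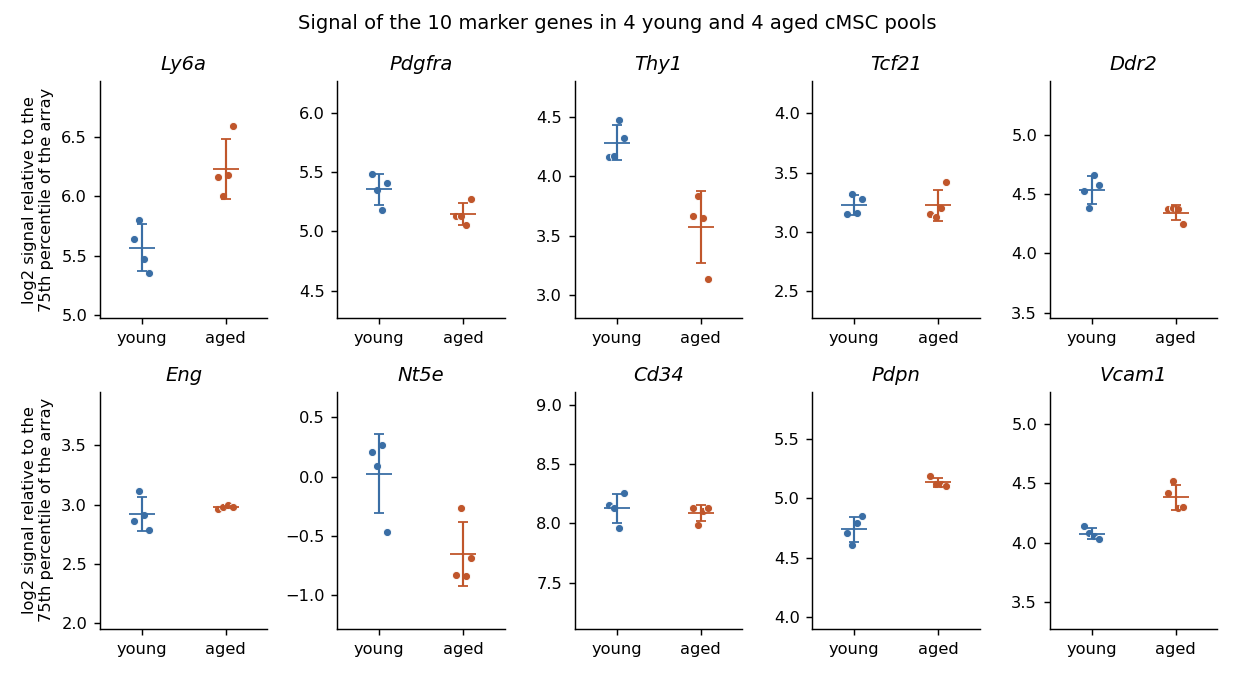
Log2 signal, with the array's 75th percentile as 0 (y axis, the same span of 2 log2 units in every panel) for the brightest probe of each of the 10 marker genes in 4 young and 4 aged pools. Points are pools, and the bar and whiskers are the mean and SD. Aged pools sit above all young pools for Ly6a, Pdpn and Vcam1 and below all of them for Thy1.

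Of the markers used for the sort, Ly6a was higher and Pdgfra slightly lower in aged cMSCs, and neither passed. The cells were gated on both proteins, so their presence in every pool is not a finding. Ly6a stood at 5.64, 5.81, 5.47 and 5.35 in young replicates 2, 3, 4 and 5, and at 6.16, 6.00, 6.18 and 6.59 in aged replicates 1, 2, 3 and 4. No aged pool reached down to the young pools, and aged replicate 4 was the highest. The difference of 0.67 (SE 0.15, 95% interval 0.33 to 1.0, 1.59-fold) had a limma adjusted p of 0.0519, just outside the threshold. It was 0.80 among the arrays of the first row of the slide and 0.53 among those of the second. Quantile normalization, median scaling, normexp background correction, the stricter filter on dim probes, array weights, limma's trend and robust options and the authors' log2 table each put Ly6a past the threshold, with adjusted p from 0.0159 to 0.0489. Without a filter on dim probes its adjusted p was 0.183, and leaving out 1 pool at a time it was 0.0555 to 0.132.

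Pdgfra stood at 5.48, 5.35, 5.18 and 5.41 in the young pools and at 5.13, 5.13, 5.05 and 5.27 in the aged pools, in the same order of replicates. The groups overlapped, since aged replicate 4 was above young replicate 4. The difference was -0.21 (SE 0.091, 95% interval -0.41 to -0.0020, limma adjusted p = 0.346). The other 2 Pdgfra probes, upstream of this one and dimmer, differed by 0.035 (SE 0.20) and 0.11 (SE 0.091), and neither passed.

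Set against each other within an array, which needs no scaling between arrays, the log2 ratio of Ly6a to Pdgfra was -0.057 to 0.46 in the young and 0.87 to 1.32 in the aged pools. The difference of 0.88 between the ages gave p = 0.029 in a two-sided exact permutation test, the smallest p that 4 pools against 4 allow. The ratio of Thy1 to Ly6a was -1.63 to -1.0 in the young and -3.46 to -2.16 in the aged pools, and the difference of -1.38 gave the same exact p of 0.029. The ratio of Thy1 to Pdgfra overlapped between the ages, with a difference of -0.50 (exact permutation p = 0.057). These 3 ratios were chosen after the values of the genes were seen.

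Thy1, which encodes CD90, was lower in aged cMSCs. It stood at 4.16, 4.17, 4.47 and 4.32 in young replicates 2, 3, 4 and 5 and at 3.67, 3.84, 3.64 and 3.13 in aged replicates 1, 2, 3 and 4. All aged pools were below all young pools, and aged replicate 4, which had the highest Ly6a, had the lowest Thy1. The difference was -0.71 (SE 0.15, 95% interval -1.07 to -0.36), a signal 1.64-fold lower in aged cMSCs, with a limma adjusted p of 0.0478. Without aged replicate 4 the difference was -0.57 (SE 0.11, limma adjusted p = 0.0436). It was -0.85 in the first row of the slide and -0.58 in the second. The call lies close to the threshold: it was lost with median scaling (adjusted p = 0.0851), with scaling to Ly6a and Pdgfra (0.0553), with no filter on dim probes (0.169) and when p was adjusted over probes (0.0533). It was also lost when any 1 of 6 of the 8 pools was left out, with limma adjusted p from 0.0883 to 0.123, and kept without aged replicate 2 or aged replicate 4. A block by replicate number or by pool code lost it too (limma adjusted p = 0.402 and 0.164). The block by number could use only replicates 2, 3 and 4 of each age, leaving out young replicate 5 and aged replicate 1.

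The 5 named genes whose values followed Thy1 most closely over the 8 arrays were Kdelr3, Col4a5, Zfp422, Pycrl and Trhde, with Pearson correlations of 0.985 to 0.989. With the mean of each age taken out, their correlations with Thy1 were 0.941 to 0.957. Aged replicate 4 was the lowest of the 8 arrays for Thy1 and for each of the 5 genes. Correlations without that pool were not computed. They were picked as the highest of all named genes, so the values are descriptions. Trhde, which encodes a hormone-degrading peptidase, fell by 1.03 on the log2 scale in aged cMSCs (SE 0.20, limma adjusted p = 0.0324). The basement membrane collagen gene Col4a5 differed by -0.49 (limma adjusted p = 0.0551), and Kdelr3, Zfp422 and Pycrl by -0.34, -0.23 and -0.37 (limma adjusted p = 0.0773, 0.183 and 0.0984).

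Tcf21 and Ddr2, the fibroblast lineage genes, did not pass. Tcf21 stood at 3.15, 3.32, 3.16 and 3.28 in the young and at 3.15, 3.13, 3.20 and 3.42 in the aged pools. The age groups covered almost the same range, and the difference was -0.0042 (SE 0.090, 95% interval -0.21 to 0.20, limma adjusted p = 0.993). Ddr2 stood at 4.52, 4.38, 4.66 and 4.58 in the young and at 4.38, 4.39, 4.37 and 4.25 in the aged pools. All aged pools but replicate 2 lay below the lowest young pool, and the difference was -0.19 (SE 0.083, 95% interval -0.38 to -0.0021, limma adjusted p = 0.346). The other 2 Ddr2 probes, dimmer by 3.34 and 6.72 on the log2 scale in young pools, differed by -0.19 and -0.057 between the ages.

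Of the stromal progenitor markers, Nt5e was lower in most aged pools, and Eng and Cd34 differed little. Nt5e, the ecto-enzyme that makes adenosine from AMP, stood at 0.21, 0.095, 0.27 and -0.47 in the young and at -0.83, -0.26, -0.84 and -0.68 in the aged pools. Young replicate 5 was below aged replicate 2, so the groups overlapped. The difference was -0.68 (SE 0.19, 95% interval -1.11 to -0.24, limma adjusted p = 0.114). Without young replicate 5, the pool that made the groups overlap, the difference was -0.84 and the limma adjusted p was 0.0375. Array weights, which gave that array a weight of 0.388, gave -0.86 with an adjusted p of 0.0186. Leaving out 1 pool in turn, Nt5e passed in 1 of 8 fits, with adjusted p up to 0.276. It passed in 2 of 12 other settings, with adjusted p up to 0.326, and with 0 of the replicate blocks. A second Nt5e probe, 40700 bases upstream, was above background by the scanner's test on 0 of 8 arrays.

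Eng stood at 2.86, 3.12, 2.91 and 2.79 in the young and at 2.97, 2.98, 3.00 and 2.98 in the aged pools, the latter lying inside the range of the former. The difference was 0.060 (SE 0.086, 95% interval -0.14 to 0.26, limma adjusted p = 0.866), and a dimmer probe 31440 bases upstream gave 0.21 (SE 0.14). Cd34 had the brightest probe of the 10 genes, at 8.16, 8.13, 7.96 and 8.26 in the young and 8.13, 7.98, 8.11 and 8.13 in the aged pools. Its difference was -0.041 (SE 0.085, 95% interval -0.24 to 0.15, limma adjusted p = 0.915). The other Cd34 probe gave -0.029 at a level 6.41 lower on the log2 scale in young pools.

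Pdpn and Vcam1 were higher in all aged pools than in any young pool. Pdpn, a ligand of the platelet receptor CLEC-2, stood at 4.71, 4.61, 4.79 and 4.85 in the young and at 5.19, 5.12, 5.12 and 5.11 in the aged pools. The aged pools lay close together (SD 0.039). Pdpn rose by 0.39 (SE 0.078, 95% interval 0.22 to 0.57, 1.31-fold, limma adjusted p = 0.0335), by 0.42 in the first row of the slide and by 0.37 in the second. The call was lost with quantile normalization (adjusted p = 0.0605), median scaling (0.199), the authors' log2 table (0.0761) and no filter on dim probes (0.166). It was lost with 7 of the 8 pools left out in turn (0.0643 to 0.106), and was kept without young replicate 5. A block by replicate number or by pool code lost it too (limma adjusted p = 0.327 and 0.128). The block by number again left out young replicate 5 and aged replicate 1. Scaled to the mean of Ly6a and Pdgfra, the difference was 0.17 and did not pass (adjusted p = 0.455), a setting that moves the median of all genes to -0.23, and the brighter Vcam1 probe then differed by 0.078.

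**Figure D2:**
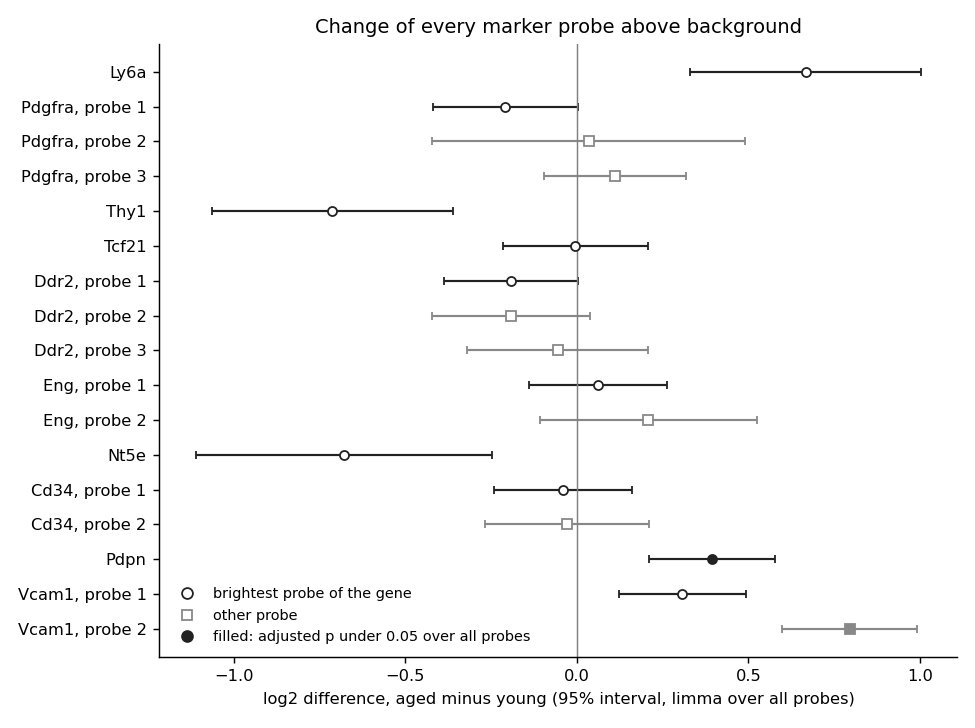
Log2 difference of aged minus young pools (x axis) for the 17 marker probes above background, each with its 95% interval from limma fitted over all probes. Filled symbols passed an adjusted p of 0.05 over all 30825 probes, which holds for Pdpn and for the dimmer Vcam1 probe, and the intervals of Ly6a, Thy1, Nt5e and the brighter Vcam1 probe leave out 0 without passing.

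Vcam1 is read by probes that differed in how much it changed. The brighter probe stood at 4.14, 4.08, 4.06 and 4.03 in the young and at 4.42, 4.52, 4.29 and 4.30 in the aged pools. Its groups did not overlap, and the difference was 0.31 (SE 0.078, 95% interval 0.13 to 0.49, 1.24-fold, limma adjusted p = 0.0822). The dimmer probe stood at 0.57, 0.50, 0.36 and 0.34 in the young and at 1.30, 1.2, 1.15 and 1.31 in the aged pools. Here the gap between the groups was wider than the spread within either, and the difference was 0.80 (SE 0.087, 95% interval 0.60 to 0.99, 1.74-fold), with a limma adjusted p of 0.0028 over all 30825 probes. In that fit over probes 1.91% of probes rose and 0.62% fell. With the mean of both probes in place of the brighter one, Vcam1 rose by 0.55 (limma adjusted p = 0.00679).

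The ratio of the dimmer to the brighter Vcam1 probe within an array was -3.69 to -3.56 in the young and -3.32 to -3.00 in the aged pools. It differed by 0.49 between the ages, with p = 0.029 in a two-sided exact permutation test, the smallest possible. Over the 7 comparisons of this kind that the marker probes allowed, the adjusted p was 0.2. Of the other 6, the Pdgfra probe that lies 14496 bases upstream differed from the brightest one by 0.32 (exact permutation p = 0.057), and the remaining 5 gave differences of -0.00084 to 0.24 with exact p of 0.371 to 1.

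**Figure D3:**
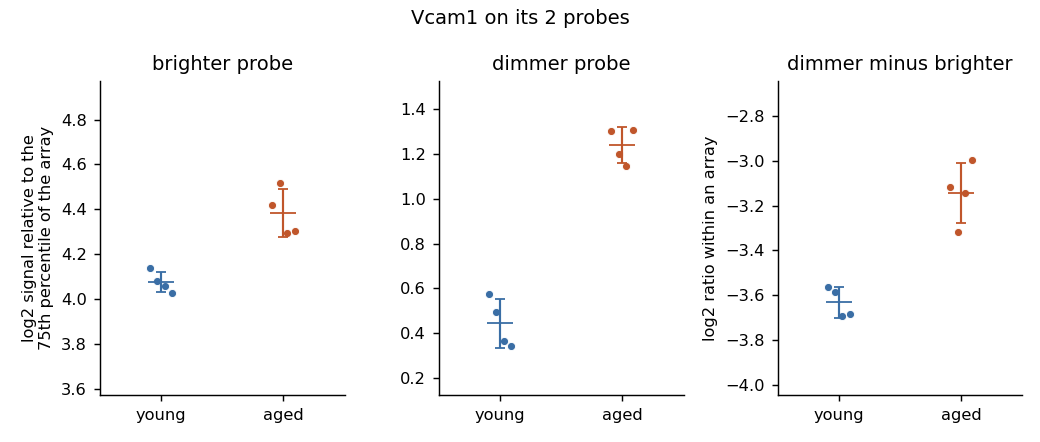
Log2 signal of the brighter and the dimmer Vcam1 probe, with the array's 75th percentile as 0, and the log2 ratio of the dimmer to the brighter probe within an array (y axes, each spanning 1.4 log2 units), in 4 young and 4 aged pools. Points are pools, and the bar and whiskers are the mean and SD. The ages separate on both probes, and the ratio is higher in every aged pool.

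Ranking the genes within each array needs no scaling, and it put 5 of the 10 markers among the brightest 10% of the 20212 tested genes on all 8 arrays. These were Cd34, Ly6a, Pdgfra, Pdpn and Ddr2. Cd34 took places 67 to 101, and Ly6a moved from places 683 to 838 in the young to places 390 to 548 in the aged pools. Ly6a was at percentile 95.9 to 96.6 in young and 97.3 to 98.1 in aged pools, and Pdgfra at 94.98 to 96.0 and 94.7 to 95.3. Thy1 went from 90.5 to 92.2 in young to 84.0 to 88.5 in aged pools. Nt5e lay far below the others, at 46.3 to 54.0 in young and 42.3 to 48.1 in aged pools.

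Pdpn was at percentile 92.9 to 94.3 in young and 94.7 to 95.1 in aged pools, and Vcam1 at 89.98 to 90.6 and 91.6 to 92.4. For Ly6a, Thy1, Pdpn and Vcam1 the ranks of the ages did not overlap, and each gave p = 0.029 in a two-sided exact permutation test. By level, 10.7% of all genes did not overlap in either direction, and the share by rank was not counted. Pdgfra and Nt5e gave exact p = 0.057, Ddr2 0.086, Eng 0.371, Cd34 0.457 and Tcf21 0.914. These are 10 tests with unadjusted p. Adjusted over the 10 tests, the exact permutation p of Ly6a, Thy1, Pdpn and Vcam1 was 0.071 each. The ranks come from the same arrays as the levels and are no separate evidence. In the young pools the ranges of neighbours in this order touched for Ly6a and Pdgfra, for Pdpn and Ddr2, for Ddr2 and Thy1 and for Thy1 and Vcam1. In the aged pools Thy1 instead overlapped with Tcf21. Ranked among all probes of the array, every marker kept the sign of its change.

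**Figure D4:**
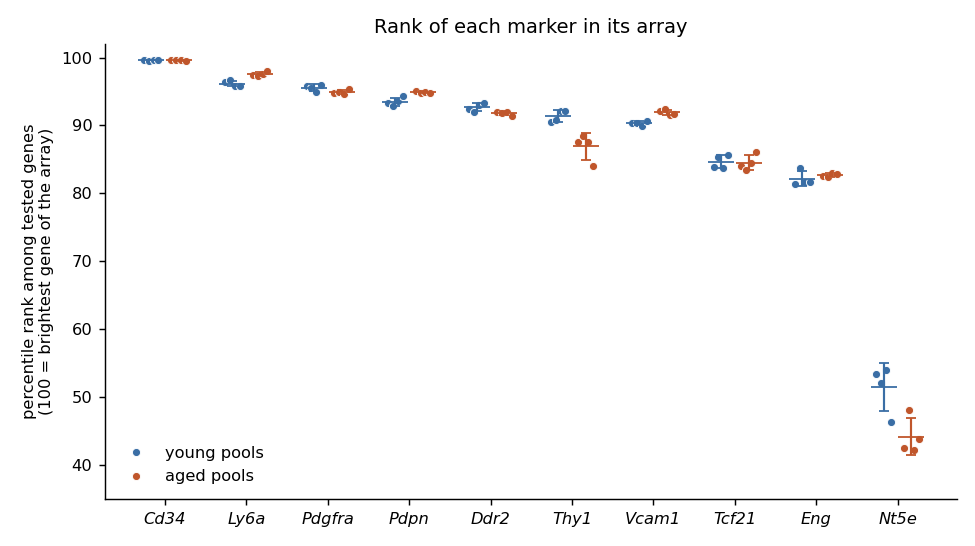
Percentile rank of the brightest probe of each marker gene among all tested genes of its array (y axis, from 35 to 100, where 100 is the brightest gene), in 4 young and 4 aged pools, with genes ordered by their mean rank in young pools. Points are pools, and the bar and whiskers are the mean and SD. Cd34 sits near the top on all arrays, Thy1 ranks lower in every aged pool, and Nt5e lies in the middle of the tested genes.

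The genes that work with these markers were counted from lists of related genes, which leave out the 10 markers themselves. Over all genes 2.36% rose and 0.792% fell, and these shares belong beside the count of every list below. In the Ly6 family of surface proteins, 3 of 13 tested members rose and 0 fell, with a median difference of 0.14. They were Ly6c2 (0.72, limma adjusted p = 0.0211), Ly6c1 (0.69, adjusted p = 0.0389) and Ly6g (0.74, adjusted p = 0.0391). All 3 lost the call with scaling to Ly6a and Pdgfra (adjusted p = 0.07 to 0.102) and with no filter on dim probes (0.0914 to 0.146). The first of these settings scales to Ly6a, itself higher in aged pools, and moves the median of all genes to -0.23. With 1 pool left out in turn, Ly6c2 passed in 3 of 8 fits, Ly6c1 in 1 and Ly6g in 0. These genes are close relatives of Ly6a in the same gene cluster. The Ly6a probe shares no stretch of 15 bases with a probe named for another gene, but how far transcripts of the family bind each other's probes was not tested.

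Among the PDGF ligands and other receptors 0 of 6 passed, with a median of 0.078. The ligand gene Pdgfc was higher in every aged pool than in any young pool, as were 6.67% of all genes. That share also goes with Cd82 and Icam1 below. Pdgfc had a difference of 1.31 and a limma adjusted p of 0.0595. Among the binding partners and adaptors of CD90 0 of 12 passed (median 0.035), among those of podoplanin 0 of 9 (median 0.084), and among collagen receptors and genes of the DDR2 pathway 0 of 11 (median -0.0043). The tetraspanin gene Cd82 differed by 1.14 (SE 0.46, limma adjusted p = 0.296) with no overlap between the ages. Young replicate 5 stood at 1.47 against 3.50 to 3.74 in the other young pools, and without it Cd82 rose by 0.60 (limma adjusted p = 0.0181). That was the only 1 of 8 fits with a pool left out in which Cd82 passed (limma adjusted p up to 0.488). It passed in 0 of 12 other settings. The collagen-binding integrin gene Itga10, listed with DDR2, differed by -0.49 (limma adjusted p = 0.211). Of the integrins, adhesion molecules and regulators listed with VCAM1, 0 of 14 passed (median 0.17), and Icam1, a related adhesion molecule, was higher by 0.72 (SE 0.21, limma adjusted p = 0.124) with no overlap. The integrin chains Itgb1 (CD29) and Itgav (CD51) differed by -0.018 and 0.040.

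In the endoglin complex and its targets, 0 of the 19 genes well above background on all 8 arrays passed. Smad9, a signal transducer of BMP receptors, was well above background on 1 of 4 young and 4 of 4 aged arrays, so it was tested only because it is high in the aged group. Its difference was 1.5 (limma adjusted p = 0.0081), and 0.40 with normexp background correction (adjusted p = 0.16). In the purine and adenosine pathway around CD73, 1 of 12 rose and 0 fell (median -0.16), beside 2.36% and 0.792% of all genes. It was Ada, which removes adenosine, with a rise of 0.78 (limma adjusted p = 0.014). Among relatives and partners of CD34 1 of 7 fell and 0 rose (median -0.038), and this was Podxl2, at -1.23 (limma adjusted p = 0.00418).

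Among 16 tested epicardial and cardiac mesenchymal transcription factors 0 passed (median -0.0089). Of 25 fibroblast genes, all tested, 1 rose and 2 fell (median -0.044), beside 2.36% and 0.792% of all genes. Postn, a matrix protein of activated fibroblasts, rose by 1.2 (SE 0.13, limma adjusted p = 0.00228), and the collagen VI genes Col6a1 and Col6a2 fell by 0.35 and 0.45 (limma adjusted p = 0.0400 and 0.0345). Of 18 tested mesenchymal stromal and niche markers 1 fell, the nerve growth factor receptor gene Ngfr at -0.87 (limma adjusted p = 0.0389), and 0 rose (median -0.0053). Of 10 adventitial fibroblast genes 1 rose, Ly6c1, which is counted above too, and 0 fell (median -0.14). With 1 pool left out in turn, Postn and Podxl2 passed in 8 of 8 fits, Ada in 7, Ngfr in 2 and Col6a1 and Col6a2 in 0.

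The arrays were also read for cells that the sort should have left out. Pecam1 (CD31) ranked at percentile 24.2 to 29.6 over the 8 arrays, and its level was -2.34 ± 0.21 (SD, n = 4) in young pools. In aged pools it was -2.32 ± 0.17 (SD, n = 4). Ptprc (CD45) has 7 probes, of which 4 stayed at background on all 8 arrays, and the brightest stood apart from the rest at 1.37 in young and 1.44 in aged pools. Of the remaining 2 probes, 1 was well above background on 1 of 4 young and 4 of 4 aged arrays, with means of -5.12 and -4.44, and the other on 3 and 2 arrays, with means of -4.74 and -4.64. The level given for Ptprc thus rests on a probe that the other 6 do not follow, and the mean of its kept probes gave a difference of 0.37 (limma adjusted p = 0.832). On their brightest probes neither Pecam1 nor Ptprc passed the test of age (limma adjusted p = 0.971 and 0.865). Of 14 endothelial markers 0 passed (median 0.046), and their summed linear signal, in units of the 75th percentile, was 27.3 to 38.2 in the young and 27.1 to 42.4 in the aged pools. These sums overlapped between the ages.

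Among markers of other cells that carry Pdpn or Vcam1, 1 of 4 tested mesothelial markers rose, beside 2.36% of all genes. It was Dmkn, by 3.98 (limma adjusted p = 6.34e-05, and 2.62 with normexp). The summed signal of the 4 markers was 0.31 to 0.50 in the young and 1.14 to 1.66 in the aged pools. Dmkn alone was 0.042 to 0.073 and 0.72 to 1.21 of these sums, and the other 3 genes (Msln, Wt1 and Krt18) together 0.24 to 0.45 in young and 0.22 to 0.77 in aged pools. The other 6 of the 10 listed markers, Upk3b, Krt8 and Krt19 among them, did not pass the filter, and Lrrn4 and Bnc1 stayed at background on all 8 arrays. Of the lymphatic endothelial markers 0 of 3 tested passed, and their sum was 0.61 to 0.86 in young and 0.77 to 0.92 in aged pools, with Flt4 and Reln at background on all 8 arrays. Of 13 tested macrophage and monocyte markers 1 rose, Cd14 by 0.62 (limma adjusted p = 0.00458), and 0 fell. Their median difference was 0.22, beside 0.0014 over all genes, and 12 of the 13 had a positive difference. Of the 13, 11 were well above background on all 8 arrays. The sums over the 13 were 26.6 to 39.2 in young and 32.8 to 49.1 in aged pools. Itgam, on this list, stood at 4.18 to 4.85 in young and 4.47 to 5.16 in aged pools on the log2 scale. This 1 gene is thus a large part of the sums. The list also holds Ptprc, read by the probe that stood apart. The part of mesothelial, lymphatic endothelial and macrophage cells in the values of Pdpn and Vcam1 was not tested.

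**Figure D5:**
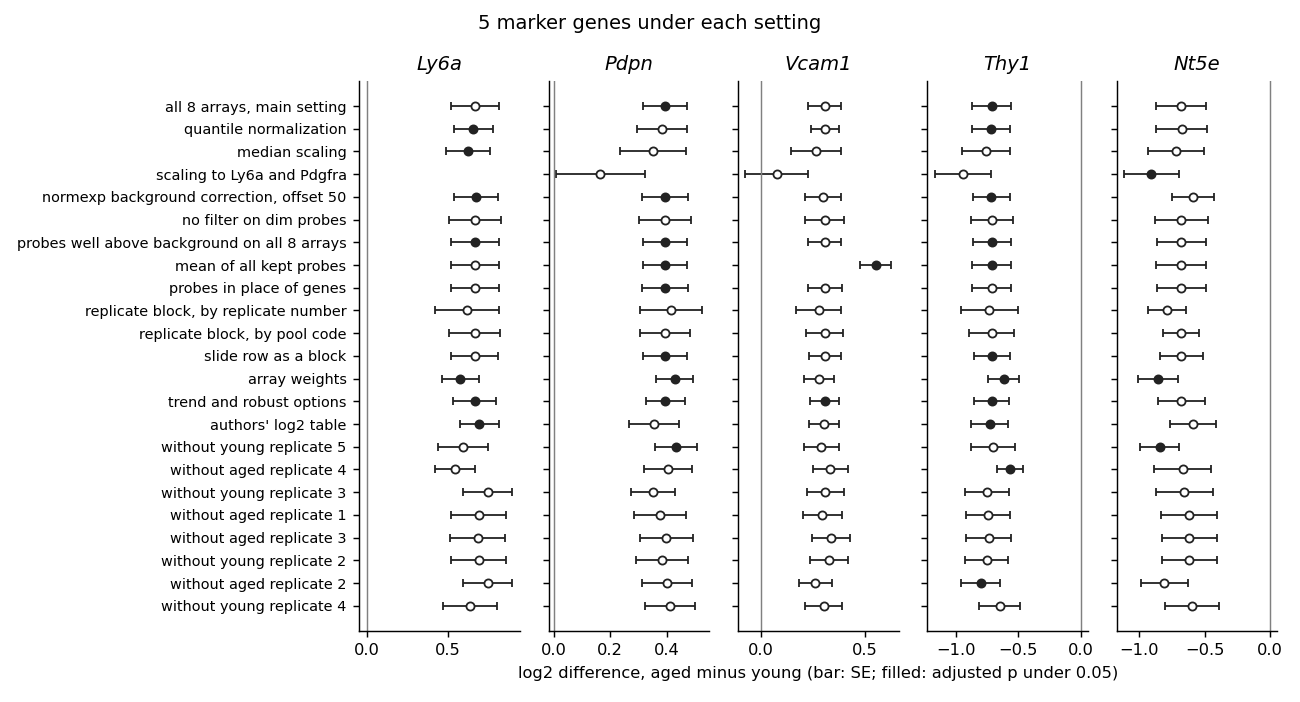
Log2 difference of aged minus young pools with its SE (x axes, whose scales differ between panels) for 5 markers, under all 8 arrays, each alternative setting and each left-out pool. Filled points passed an adjusted p of 0.05. The sign of these genes held in all of them, and Ly6a gained a call in 7. With 1 pool left out in turn, Pdpn kept its call in 1 of 8 fits and Thy1 in 2. Of 12 other settings Pdpn kept it in 7 and Thy1 in 8, and both lost it with either replicate block. The block by number used only the pools whose replicate number occurs in both ages.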

How the data were processed

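Members were all non-control probes carrying 1 of the 10 gene names. Members, lists and tests were chosen with earlier results of these data known. The authors deposited, for each array, the processed intensity from Agilent Feature Extraction 10.10.1.1 (background subtracted, spatial trend removed, not scaled between arrays), and a table of log2 values that they had normalized and that served as an alternative. Spots marked as outliers were left out, log2 of the processed intensity was taken relative to the array's 75th percentile (479 to 816), and replicate spots were averaged. The filter kept 30825 probes that the scanner software found well above background throughout 1 age group at least, and the brightest stood for its gene. Names came from a RefSeq table of GRCm38.p6 for 33889 of 56605 probes, matched by accession. The ages were tested with limma (version 3.58.1, R 4.3.3; 6 residual and 2.53 prior degrees of freedom), which the methods also name, with Benjamini-Hochberg adjustment over 20212 genes, and the code was tested on simulated data. Exact permutation tests used scipy 1.17.1. The 8 arrays shared 1 slide and 1 scan, with both ages in each of its 2 rows. The number of arrays limits the precision. The genes named were the 10 markers, Pecam1 and Ptprc, Itgb1 and Itgav, from each of 22 lists up to 3 called genes with the largest difference (up to 2 where none was called), and the 5 named genes most correlated with Thy1. Alternatives were other scalings (quantile, median, Ly6a with Pdgfra), normexp with an offset of 50, other filters, probe means, fits over probes, blocks, array weights, trend and robust options, the thresholds of the methods (unadjusted p of 0.01 and log2 difference of 0.5), the authors' log2 table, ranks among all probes and leaving out each pool.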

Additional observations from a re-analysis of the deposited data

Results flagged for a closer look

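Ddr2 in aged replicate 4 lay apart from the other 3 aged pools, with a gap of 0.898 of the range of its group. Its level was 4.25 against 4.37 to 4.39 in the others. With 20 groups of 4 examined (10 genes in 2 ages), chance alone flags about 1 in 20.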

How the results depend on the processing

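The counts of called markers are small and moved with the settings. Against 1 marker higher, 2 were called with normexp, with probes well above background on all 8 arrays, with probe means and with array weights, 3 with the trend and robust options, and 0 with scaling to Ly6a and Pdgfra and with no filter on dim probes. Against 1 marker lower, 2 were called with array weights and at the thresholds of the methods, and 0 with median scaling, with no filter and with p adjusted over probes. Leaving out 1 pool at a time gave 0 to 1 markers higher and 0 to 1 lower. A replicate block, by replicate number or by pool code, left 0 markers higher and 0 lower. Over all genes 14 were higher with the block by number and 206 with the block by code, against 477. The block by number held only 3 pairs and left out young replicate 5 and aged replicate 1. Its lost calls cannot be assigned to the block or to the smaller number of arrays. Same-numbered pools did not deviate together (correlations of -0.27 to 0.18 over 3 pairs by number and over 4 by code). So few pairs cannot tell whether matching pools were handled together, which was not tested. Scaling to Ly6a and Pdgfra turned the share of higher calls among all calls from 74.9% to 46.1%. Without a filter 200 genes rose and 45 fell, against 477 and 160, and with the methods' thresholds 649 and 255.

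Signs changed for genes with differences near 0. Scaling to Ly6a and Pdgfra gave -0.17 for Eng, -0.21 for Pecam1, -0.16 for Ptprc and -0.19 for Itgav. Tcf21 was 0.00031 with normexp and 0.037 with the replicate block by number. Pecam1 was -0.018 with median scaling, -0.038 with the replicate block by number, -0.046 with array weights and -0.011 in the authors' table. Probe means gave 0.018 for Itgb1 and -0.082 for Itgav, and median scaling gave -0.0028 for Itgav. Without 1 pool, Tcf21 ranged from -0.069 to 0.029, Cd34 from -0.096 to 0.0032, Pecam1 from -0.048 to 0.12, Itgb1 from -0.056 to 0.030 and Itgav from -0.028 to 0.14. The causes were not tested. No other marker changed sign in any setting. The array has 1 probe each for Ly6a, Thy1, Pdpn and Tcf21, so for these no second probe bears on the value.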

Other observations

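Markers of cells with no clear link to the 10 genes were read from the same lists. Over all genes 2.36% rose and 0.792% fell. The 12 tested cardiomyocyte markers had a median difference of -0.48, and 1 of them had a positive difference. Of the 10 well above background on all 8 arrays 1 fell and 0 rose. This was Tnni3, by 0.32 (limma adjusted p = 0.0427), a call that was lost in each of 8 fits with 1 pool left out. Pln was well above background on 4 of 4 young and 2 of 4 aged arrays, so it was tested only because it is high in the young group. Its difference was -0.90 (limma adjusted p = 0.0447), -0.28 with normexp (0.179) and -0.43 in the authors' table (0.153). Of 8 tested Schwann cell and neuronal markers 1 rose and 1 fell (median 0.23). The myelin gene Mbp rose by 1.71 (limma adjusted p = 0.00221), and Ngfr fell as given above. Of 12 mural cell markers 0 passed (median -0.22). The smooth muscle myosin gene Myh11 was lower in all aged pools than in any young pool (-0.62, limma adjusted p = 0.15), as were 4.06% of all genes. Of the 4 lymphocyte markers whose brightest probe was well above background on all 8 arrays 0 passed. Of all 6 tested, 5 had a positive difference (median 0.39), which includes genes that met the filter in 1 age only. The brightest Cd2 probe was well above background on 3 of 4 young and 4 of 4 aged arrays, so that probe was tested only because it is high in the aged group. Its difference was 1.08 (limma adjusted p = 0.042), 0.33 with normexp (0.367), 0.52 in the authors' table (0.0713) and 0.72 without aged replicate 1. With only probes well above background on all 8 arrays Cd2 rose by 0.67 (limma adjusted p = 0.0117), and with probe means by 0.88 (0.00837). Of this list, Cd3g and Nkg7 stayed at background on all 8 arrays. Summed signals, in units of the 75th percentile, were 11.7 to 14.6 in young and 6.41 to 11.3 in aged pools for cardiomyocyte markers, 16.2 to 23.9 and 20.1 to 30.6 for Schwann cell and neuronal markers, 37.9 to 45.7 and 34.8 to 38.2 for mural markers and 1.56 to 2.30 and 1.84 to 2.16 for lymphocyte markers. The cardiomyocyte sums did not overlap between the ages, and the others did. The part of all these cells in the values of Thy1 and the other markers was not tested.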
